A study of Mus musculus with 2 samples.

Results

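Piezo1, Piezo2, Trpv2, Trpv3, Trpv4, Trpc1, Trpc6 and Trpm7 encode ion channels of the Piezo and TRP families that have been linked to the sensing of mechanical force in skin. These 8 genes were taken by name from a table of read counts for 24421 gene symbols, and all 8 were found in it. The table holds 1 RNA-seq library of stretched skin and 1 library of control skin. Both came from wild type C57BL6/J mice, described in the methods of the study as 8-week-old females, and both hold whole-layer back skin collected at day 5. The stretched skin was put under an initial strain of 33% that, per the methods, was raised each day over the 5 days, and the control skin was not strained. The number of mice behind each library is not given in the sources used here. The counts summed to 14152379 in the control library and 11648655 in the stretched library.

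With 1 library per condition, no difference has a replicate check and none was tested. Each difference is the ratio of CPM (a gene's count scaled to the library total) in the stretched library to CPM in the control library, on the log2 scale, followed in brackets by its exact 95% Clopper-Pearson interval. These intervals cover counting error only and compare the libraries, not the conditions. Levels of different genes were compared as FPKM, here CPM divided by the exonic length in kilobases.

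Piezo proteins are large trimeric channels that open when the membrane is put under tension and let calcium and other cations into the cell. Piezo1 is widely expressed in non-neuronal tissues such as endothelium and epithelium. Piezo2 is the main channel of gentle touch in sensory neurons and Merkel cells. TRP channels are cation channels with many kinds of stimulus. TRPV3 and TRPV4 are heat-activated channels of keratinocytes, TRPV2 is prominent in macrophages and other immune cells, and TRPM7 joins a channel for divalent cations to a kinase. TRPC1 and TRPC6 are calcium-permeable channels that act downstream of receptors coupled to phospholipase C, and their direct gating by force is debated.

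The members fell into an abundant and a scarce set in both libraries. Piezo1 had 14.4 FPKM in the control library and 14.8 in the stretched library. Trpv4 had 9.55 and 7.03 FPKM, and Trpm7 had 8.14 and 6.21 FPKM. These 3 genes were the highest of the 8 in both libraries. Trpv2, at 2.03 FPKM in the control and 3.77 in the stretched library, and Trpv3, at 1.85 and 0.942 FPKM, stood between them and the scarce members. Trpc1 had 0.282 and 0.257 FPKM, Piezo2 had 0.202 and 0.455 FPKM, and Trpc6 had 0.153 and 0.136 FPKM. Piezo1 lay above 77.4% of the 16147 genes with a length and counts over 3 in at least 1 library in the control and above 79.4% in the stretched library. Trpc6 lay above 5.99% and 5.52% of them.

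**Figure D1:**
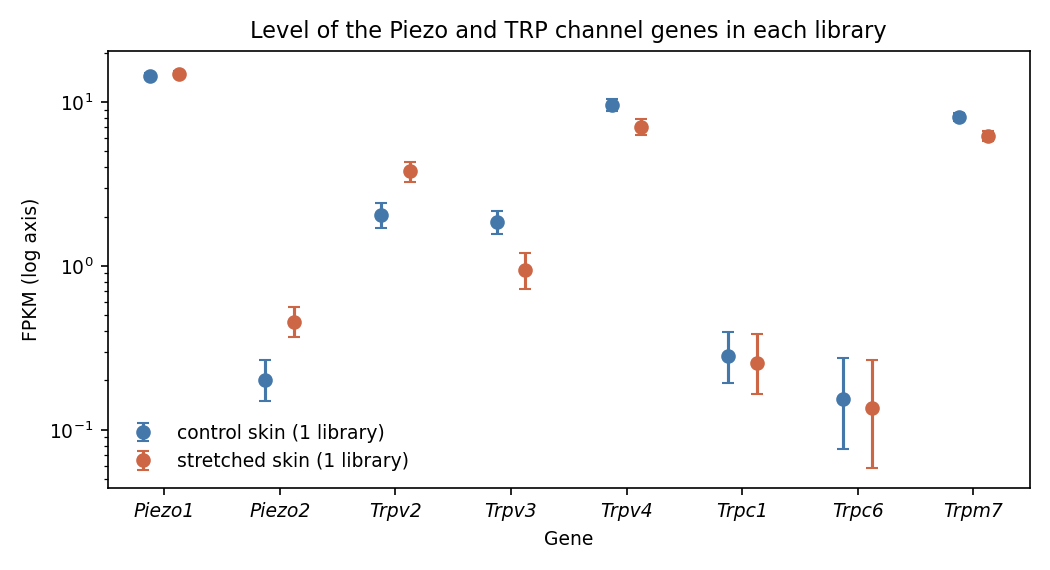
FPKM of the 8 members in each library on a log axis, with 95% counting intervals, 1 library per condition. Piezo1, Trpv4 and Trpm7 lie above 6 FPKM in both libraries, whereas Trpc1, Piezo2 and Trpc6 lie below 0.5 FPKM.

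The promoters of members from the abundant and the middle set are shown because they differ in their CpG content. They are the 250 bases before the RefSeq start on GRCm38.p6, written 5′ to 3′ on the strand of the gene, and capitals mark the GC box GGGCGG. RefSeq entries were used for 7 of the 8 members. The Piezo1 promoter (chr8:122551330-122551579, minus strand) held 26 CpG dinucleotides, that of Trpv4 (chr5:114658422-114658671, minus strand) held 22, and that of Trpm7 (chr2:126876262-126876511, minus strand) held 26. The median over 32851 promoters was 6. Trpv2 (chr11:62574236-62574485, plus strand, the most upstream of its 3 listed starts) held 2. For Trpv3, only the 118 bases outside annotated exons are printed (chr11:73267270-73267387, plus strand), and its full window held 3.
Piezo1: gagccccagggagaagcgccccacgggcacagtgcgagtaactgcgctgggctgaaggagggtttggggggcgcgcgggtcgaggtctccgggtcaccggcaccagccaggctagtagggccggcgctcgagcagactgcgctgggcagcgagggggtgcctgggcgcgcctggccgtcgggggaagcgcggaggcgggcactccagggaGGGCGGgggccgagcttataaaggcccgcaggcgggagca
Trpv4: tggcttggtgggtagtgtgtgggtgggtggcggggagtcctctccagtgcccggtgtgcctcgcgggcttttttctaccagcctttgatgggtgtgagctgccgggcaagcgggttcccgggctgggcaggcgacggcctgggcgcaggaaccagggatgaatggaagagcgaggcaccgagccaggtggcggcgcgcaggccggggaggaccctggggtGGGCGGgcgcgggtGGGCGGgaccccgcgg
Trpm7: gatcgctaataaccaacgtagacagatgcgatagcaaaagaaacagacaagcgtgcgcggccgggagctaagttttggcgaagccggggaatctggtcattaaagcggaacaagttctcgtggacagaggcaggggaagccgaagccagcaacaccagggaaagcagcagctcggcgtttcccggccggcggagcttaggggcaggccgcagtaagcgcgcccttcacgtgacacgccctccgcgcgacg
Trpv2: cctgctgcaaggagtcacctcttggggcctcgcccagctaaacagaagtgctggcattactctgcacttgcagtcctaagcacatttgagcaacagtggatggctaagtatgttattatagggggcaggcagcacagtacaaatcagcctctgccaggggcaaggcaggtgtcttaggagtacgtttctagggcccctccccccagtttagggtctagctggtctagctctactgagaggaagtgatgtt
Trpv3: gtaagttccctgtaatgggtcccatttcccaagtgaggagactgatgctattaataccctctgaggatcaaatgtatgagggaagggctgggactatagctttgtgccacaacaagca

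The GC content of these windows was 74.0% for Piezo1, 72.0% for Trpv4 and 60.4% for Trpm7, against 53.2% for Trpv2, 54.4% for Trpv3 and a median of 52.4% over all promoters. Piezo1 had 1 match to the GC box and Trpv4 had 2, while Trpm7 had none. The scarce Trpc1 had 17 CpG dinucleotides and 3 GC boxes, and Trpc6 had 12 CpG dinucleotides, so that CpG content did not follow the level in all 7. Windows were also searched on both strands for the CCAAT box CCAAT, the AP-1 site TGANTCA, the TEAD site GGAATG and the NFAT site GGAAAA. Of all promoters, 32.7% held a GC box, 33.8% a CCAAT box, 6.75% an AP-1 site, 12.6% a TEAD site and 20.4% an NFAT site. The Trpv3 window held an AP-1 match, in the stretch that is not printed. A TEAD match lay in the window of another Trpv2 start, which is also not printed. The printed windows of Piezo1, Trpv4, Trpm7 and Trpv2 held no match to the AP-1, TEAD, NFAT or CCAAT letters. A match or its absence describes these letters in these windows and nothing about the factors.

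Piezo1 (chr8:122481698-122551329, minus strand, mm10, 9935 exonic bases) had nearly the same CPM in both libraries. It had 2030 counts or 143 CPM in the control library and 1716 counts or 147 CPM in the stretched library. The log2 difference was 0.04 [-0.06, 0.13], so that a difference was not detectable at this depth. Scaling matters here, since the median gene of the table was lower in the stretched library by total counts (log2 -0.12) and Piezo1 stood 0.16 above that median. With TMM, median of ratios or upper quartile scaling its log2 difference was 0.14, 0.15 and 0.14, and its interval then lay above 0. Of its exonic bases, 24.6% overlap exons of Ctu2, a gene for tRNA modification on the opposite strand. Ctu2 had 693 counts in the control and 799 in the stretched library, with a log2 difference of 0.49 [0.34, 0.64]. How the counting treated strand is not given in the sources used here, so that reads from the overlap cannot be told apart.

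Piezo2 (17162 exonic bases) was the member with the largest upward difference. It had 49 counts in the control library and 91 in the stretched library, or 3.46 and 7.81 CPM. This is a log2 difference of 1.17 [0.66, 1.71], or 2.26-fold. It remained among the least abundant channels of the tissue, and it lay above 7.70% of genes in the control and 14.0% in the stretched library.

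The TRPV channels went in both directions. Trpv2 (chr11:62574486-62600515, plus strand) had 129 counts or 9.12 CPM in the control library and 197 counts or 16.9 CPM in the stretched library. Its log2 difference was 0.89 [0.56, 1.22], or 1.86-fold. Of its 76-base exonic stretches, 0.692% are shared with another gene.

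Trpv3 (chr11:73267388-73300363, plus strand), another gene of the TRPV subfamily, went the other way. It had 153 counts or 10.8 CPM in the control library and 64 counts or 5.49 CPM in the stretched library. Its log2 difference was -0.98 [-1.42, -0.55]. Trpv4 (chr5:114622152-114658421, minus strand), the osmotically sensitive channel of the group, had 551 counts or 38.9 CPM in the control library and 334 counts or 28.7 CPM in the stretched library. Its log2 difference was -0.44 [-0.64, -0.24], smaller than that of Trpv3.

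Trpm7 (chr2:126791565-126876230, minus strand) had 1304 counts or 92.1 CPM in the control library and 819 counts or 70.3 CPM in the stretched library. Its log2 difference was -0.39 [-0.52, -0.26]. The TRPC genes were too scarce for a comparison. Trpc1 (chr9:95705082-95750375, minus strand) had 32 counts in the control and 24 in the stretched library, with a log2 difference of -0.13 [-0.96, 0.67]. Trpc6 (chr9:8544142-8680741, plus strand) had 11 and 8 counts and a log2 difference of -0.18 [-1.70, 1.27]. A difference was not detectable at this depth for either gene. Of the Trpc6 stretches of 76 bases, 2.76% are shared with another gene.

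**Figure D2:**
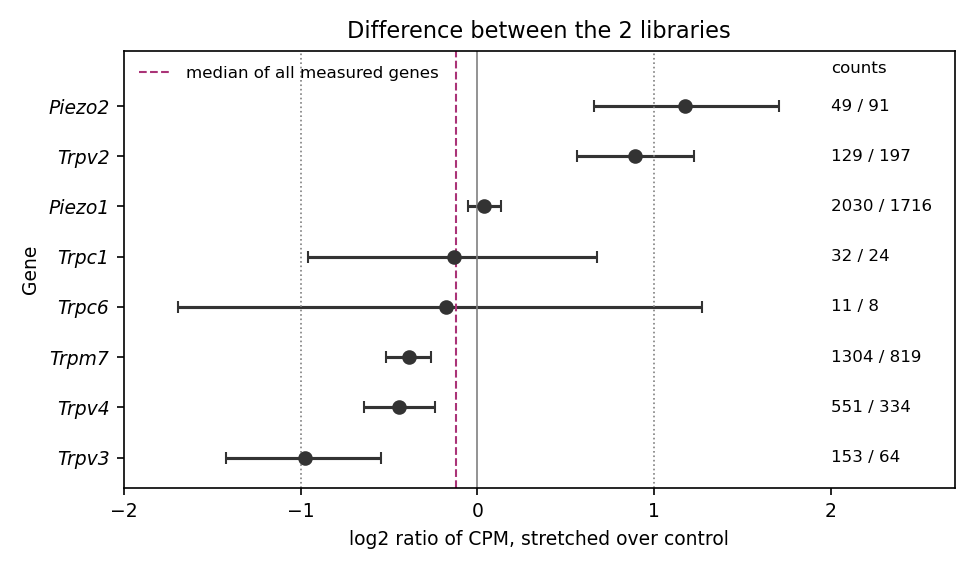
Log2 ratio of CPM, stretched over control, for the 8 members with exact 95% counting intervals, 1 library per condition. Counts in the control and stretched libraries are printed at the right, dotted lines mark 2-fold and the dashed line marks the median of all measured genes at -0.12. Piezo2 and Trpv2 lie wholly above 0, and Trpm7, Trpv4 and Trpv3 wholly below it.

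Across the 8 members, 3 were higher and 5 lower in the stretched library, with a median log2 difference of -0.16. That median was -0.05 when libraries were scaled by upper quartile, TMM or median of ratios. Over the 16255 genes with more than 3 counts in at least 1 library, 38.5% were higher and 61.5% lower. The interval lay wholly above 0 for 2 members, against 18.1% of all genes, and wholly below 0 for 3 members, against 33.5% of all genes. By CPM alone, Piezo2 was the only member at least 2-fold higher, against 6.32% of genes, and none was at least 2-fold lower, against 5.47% of genes. Trpv3 stopped just short of that limit at 1.97-fold lower, and the interval of Piezo2 began below 2-fold, at 1.58-fold. Trpv2 also reached 2-fold with median of ratios scaling, and Piezo2 stopped short of it, at a log2 difference of 0.98, with 1 CPM added to both values. The study filtered genes by an expression value (EV), the product of both FPKM values, above 10, and called those with a fold of at least 2. Its FPKM came from Cufflinks, whereas FPKM here was computed from counts, so that calls made here need not match its own. The methods state no added constant, and here 1 was added to each FPKM for both the EV and the fold of a call. By this form Piezo1, Trpv2, Trpv4 and Trpm7 passed EV and none of the 8 was called, against 2.61% of the 10913 genes passing EV called up and 2.45% called down. Piezo2, with an EV of 1.75, and Trpv3, with an EV of 5.54, were below that limit. By the plain product 3 members passed, since Trpv2 then had an EV of 7.66, and again none was called. That form called 285 genes up and 278 down over all genes with a length.

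The counts of all 8 members together were 4259 in the control and 3253 in the stretched library, a log2 difference of -0.11 [-0.17, -0.04] that was close to 0 with TMM and upper quartile scaling and changed sign with median of ratios. The Piezo genes together gave 0.08 [-0.01, 0.17], with an interval above 0 under each of the 4 other scalings, and the 6 TRP members gave -0.31 [-0.41, -0.21], lower under each scaling tried. The summed FPKM of the 8 was 36.7 in the control and 33.6 in the stretched library. Piezo1 made up 39.4% of that sum in the control and 44.1% in the stretched library. Trpv4 went from 26.1% to 20.9% and Trpm7 from 22.2% to 18.5%. The share of Trpv2 was 5.54% and 11.2%, that of Trpv3 5.05% and 2.80%, and that of Piezo2 0.550% and 1.35%.

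Ratios of counts between members within a library do not depend on how the libraries are scaled. Of the 28 pairs of members, 15 had a ratio whose shift between the libraries had a 95% counting interval that excluded 0, without adjustment for the number of pairs. The pairs reuse the same members, and the share among pairs of all genes was not computed. The largest shift was between Piezo2 and Trpv3, which follows from their being the members with the largest upward and downward differences. There were 0.320 counts of Piezo2 per count of Trpv3 in the control and 1.42 in the stretched library, a log2 shift of 2.15 [1.46, 2.84]. Trpv2 to Trpv3 went from 0.843 to 3.08, a log2 shift of 1.87 [1.32, 2.42]. Trpv3 thus had more counts than either Piezo2 or Trpv2 in the control library and fewer in the stretched library. Counts are not divided by exonic length, and by FPKM neither pair changed order. By FPKM Trpv3 lay above Piezo2 in both libraries. Trpv2 lay above Trpv3 in both, although within counting error in the control.

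Piezo1 had 41.4 counts per count of Piezo2 in the control and 18.9 in the stretched library, a log2 shift of -1.14 [-1.68, -0.61]. Piezo1 gained on Trpv4 by 0.48 [0.26, 0.70] and on Trpm7 by 0.43 [0.27, 0.59]. The shifts of Piezo2 and Trpv2 could not be told apart at this depth (0.28 [-0.34, 0.91]), nor could those of Trpv4 and Trpm7 (-0.05 [-0.29, 0.19]). Trpv3 shifted further down than Trpv4 (-0.54 [-1.02, -0.06]) and Trpm7 (-0.59 [-1.05, -0.14]).

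**Figure D3:**
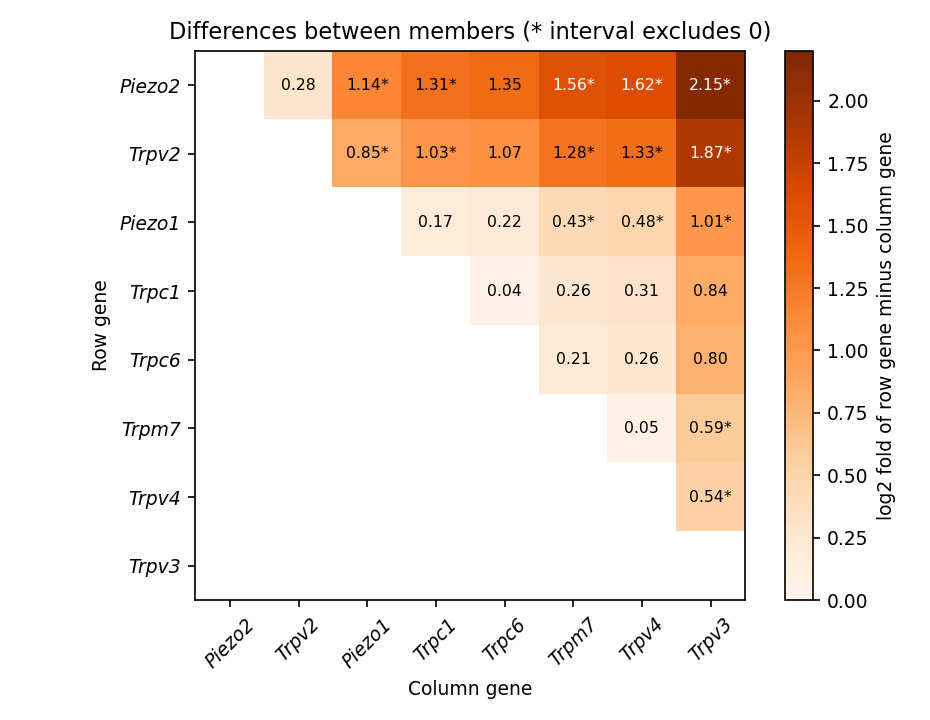
Log2 shift, between the control and the stretched library, in the ratio of each pair of members (row over column), with pairs whose 95% counting interval excludes 0 marked. The strongest shift is Piezo2 over Trpv3 at 2.15, and 15 of 28 pairs exclude 0.

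In the control library the order of FPKM was Piezo1, Trpv4, Trpm7, Trpv2, Trpv3, Trpc1, Piezo2 and Trpc6. Piezo1 was 1.51 times Trpv4, Trpv4 was 1.17 times Trpm7 [1.06, 1.30] and Trpm7 was 4.01 times Trpv2. The neighbours Trpv2 and Trpv3, Trpc1 and Piezo2, and Piezo2 and Trpc6 did not differ beyond counting error. In the stretched library Piezo2 and Trpc1 changed places, with Piezo2 1.77 times Trpc1 [1.12, 2.91]. Trpv2 then stood above Trpv3 beyond counting error, and Trpv4 and Trpm7 were within counting error (1.13 [0.99, 1.29]). Trpv4 led Trpm7 by exon union length, whereas with the length of the longest transcript Trpm7 led, at 27.1% and 22.7% of the summed FPKM against 25.2% and 20.4% for Trpv4.

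Of 22 other TRP channel genes, 14 were measured. The interval lay above 0 for 3, below 0 for 5 and included 0 for 6, and the median log2 difference was 0.03. Trpv5, Trpc2, Trpc5, Trpc7, Trpm5, Trpm8, Trpa1 and Pkd2l1 had 3 counts or fewer in both libraries. Among these, Trpm8 is a cold sensor and Trpa1 an irritant sensor of nociceptors, whereas Trpv1, their heat and capsaicin sensor, had 13 and 14 counts. Pkd2, a polycystin of cilia and the endoplasmic reticulum and the most abundant of the list, had 1098 and 1085 counts (0.26 [0.14, 0.39]). Mcoln2, a lysosomal channel, had 49 counts in the control and 144 in the stretched library (1.84 [1.36, 2.33]). Trpm1, a channel of melanocytes, had 685 and 180 counts (-1.65 [-1.89, -1.41]).

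Of 19 other mechanosensitive channel genes, 16 were measured, with 2 intervals above 0, 4 below 0, 10 that included 0 and a median of -0.11, which changed sign with median of ratios scaling. Scnn1b, a subunit of the epithelial sodium channel, had 168 counts in the control and 49 in the stretched library (-1.50 [-1.99, -1.03]) and was the only gene of the list called, down. It passed EV at 14.3 only with the added 1, since its plain product was below 10 and it was then not called. The gamma subunit gene Scnn1g had 106 and 49 counts (-0.83). Pkd1, the partner of Pkd2, had 1642 and 1609 counts (0.25 [0.15, 0.35]). Over the 31 candidates of the channel lists with 20 or more counts and 2 libraries, the genes nearest to Trpv3 in log2 difference were Mcoln3 (-0.94), Trpv6 (-0.86) and Scnn1g, and those nearest to Piezo2 were Trpv2, Trpm3 and Mcoln2. Trpm3 had only 9 and 11 counts and its interval included 0.

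Of 14 genes for channel partners, 13 were measured, with 5 intervals above 0, 2 below 0 and a median of 0.17. Orai1, the pore of store-operated calcium entry, had 437 and 569 counts (0.66 [0.48, 0.84]). Homer1, a scaffold that binds TRPC channels, had 288 and 158 counts (-0.59 [-0.87, -0.30]). Anxa6, a calcium-dependent membrane-binding protein and the most abundant of the list, had 3388 and 3164 counts (0.18 [0.11, 0.25]).

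Calcium entering through channels activates the phosphatase calcineurin, which dephosphorylates NFAT transcription factors. Of 14 calcineurin and NFAT genes, all were measured, with 4 intervals above 0, 5 below 0 and a median of -0.04, which changed sign with each of the other scalings. The listed NFAT genes went both ways, but only Nfatc3 was lower. Nfatc1 (0.68 [0.55, 0.81]) and Nfatc4 (0.65 [0.48, 0.82]) were higher, as was Nfatc2. Nfatc2 had 386 counts in the control and 713 in the stretched library (1.17 [0.99, 1.35]) and was called, up, by the plain product (EV of 14.9) but not with 1 added, whereas Nfatc3 had 1291 and 816 counts (-0.38 [-0.51, -0.25]).

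In keratinocytes TRPV3 is known to work with the EGF receptor, its ligands and transglutaminases of the cornified envelope. Of 8 genes of this group, 1 interval lay above 0 and 4 below 0, and the median was -0.18. Tgm3 had 518 counts in the control and 144 in the stretched library (-1.57 [-1.84, -1.30]) and was the only gene of the group called, down, with and without the added 1. Tgm1, also a transglutaminase, had 1871 and 1109 counts (-0.47 [-0.58, -0.37]). Hbegf, an EGF receptor ligand, had 295 and 339 counts (0.48 [0.25, 0.71]). The other ligands listed did not rise with it. Tgfa had 842 and 362 counts (-0.94 [-1.12, -0.76]), and the intervals of Areg (-0.03) and Ereg (0.08) included 0. The receptor gene Egfr was lower (-0.32 [-0.45, -0.20]).

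**Figure D4:**
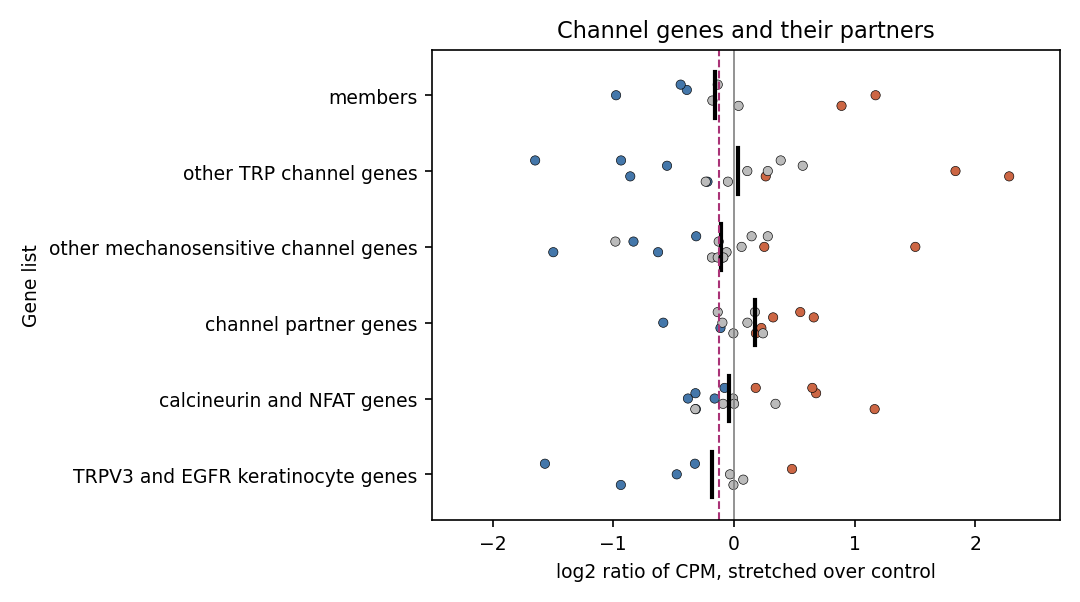
Log2 ratio of CPM, stretched over control, for each measured gene of the channel, partner, calcineurin and NFAT, and TRPV3 and EGFR lists. Orange points have a 95% counting interval above 0, blue points below 0 and grey points include 0, the black bar is the median of a list and the dashed line the median of all genes at -0.12. List medians lie between -0.18 for the TRPV3 and EGFR genes and 0.17 for the partners.

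In whole skin, fewer cells of a type and less RNA per cell cannot be told apart, so the levels of cell type markers are given beside the channels. Keratinocyte markers, which fit the labelled tissue, summed to 18763 CPM in the control and 18148 in the stretched library, with 3 of 8 intervals above 0 and 4 below 0. The Trpv3 and Trpv4 differences stood beside these values and beside Dsp at -0.67 and Krt14 at 0.28. Hair keratin genes, a list added after its values were seen, were lower in 10 of 10 genes (1648 and 161 CPM in sum). The melanocyte genes, also added after their values were seen and the cell type of Trpm1, summed to 396 and 163 CPM. The part of these lists in the Trpv3, Trpv4 and Trpm1 differences was not tested.

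Macrophage markers were higher in 8 of 8 genes, with a median log2 difference of 1.42, and summed to 651 CPM in the control and 1546 in the stretched library. The Trpv2 difference of 0.89 lay above that of Cd163 at 0.80, the lowest of the list, and below the highest, Fcgr1 at 2.68. Endothelial markers, of a cell type known for Piezo1, had 5 of 8 intervals above 0 and 1 below 0, and summed to 244 and 317 CPM. Mast cell markers had 5 of 6 intervals above 0 and 1 below 0. The part of these lists in the Trpv2 and Piezo1 values was not tested.

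Merkel cell markers, of a cell type known for Piezo2, summed to 15.0 CPM in the control and 24.8 in the stretched library. Of 7 genes, 6 were measured and 2 intervals lay above 0, and the defining gene Atoh1 had 0 counts in both libraries. Krt18 had 14 and 43 counts and Isl1 had 52 and 112, and these were the 2 above 0. Krt20 had 64 and 74 counts, Chga had 25 and 23, Krt8 had 39 and 28, and Sox2 had 18 and 9, each with an interval that included 0. None of 8 sensory axon genes had more than 3 counts in either library, and they summed to 9 counts in each. Schwann cell markers had 2 of 6 intervals above 0 and none below 0. The part of these lists in the Piezo2 difference was not tested.

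The remaining marker lists were fibroblast genes, with 7 of 7 intervals above 0 and a median of 0.25, and smooth muscle and pericyte genes, with 4 of 7 above 0, 2 below 0 and a median of 0.14. Skeletal muscle genes had 2 of 8 intervals above 0 and 6 below 0, from 1.10 for Myh1 to -4.57 for Myh4. Adipocyte genes had 6 of 6 intervals below 0 and a median of -0.78.

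**Figure D5:**
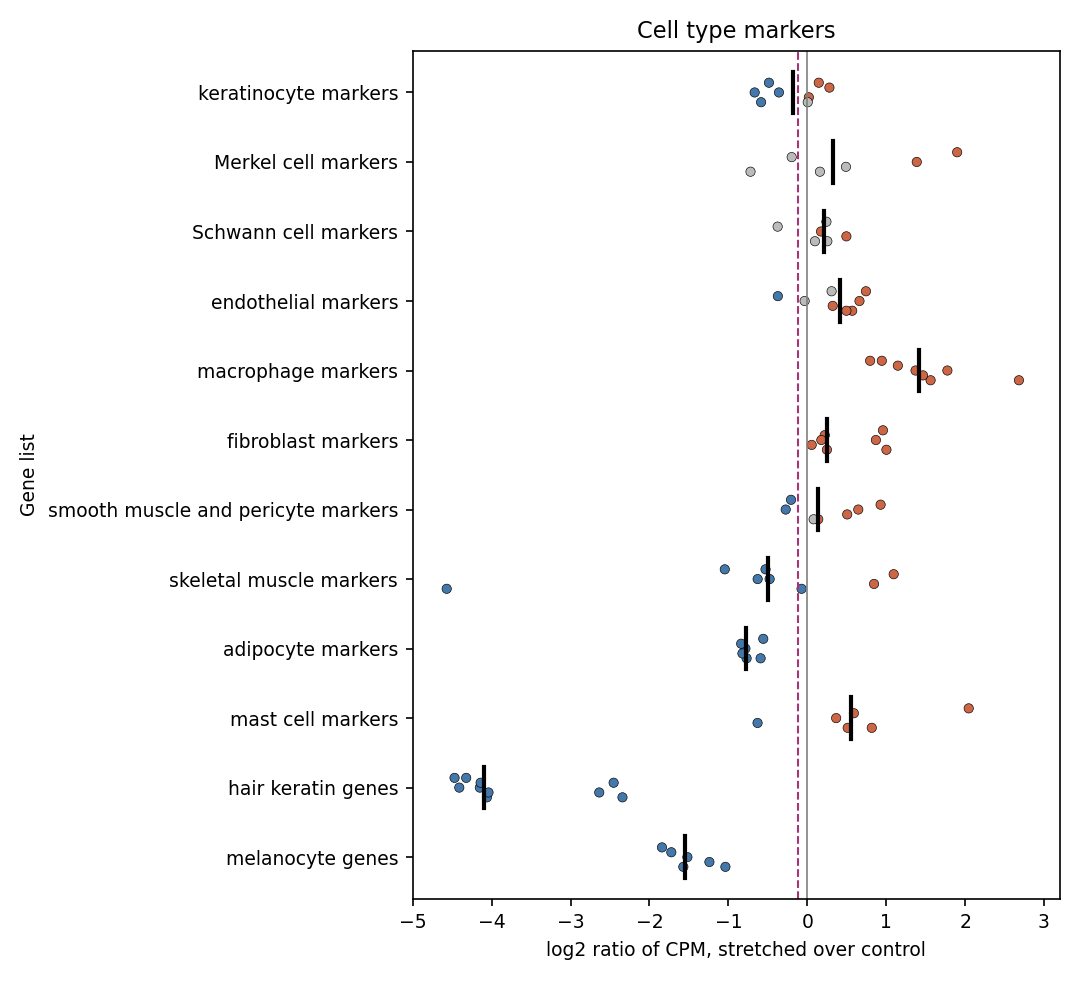
Log2 ratio of CPM, stretched over control, for the measured genes of the cell type marker lists. Orange points have a 95% counting interval above 0, blue points below 0 and grey points include 0, the black bar is the median of a list and the dashed line the median of all genes at -0.12. Macrophage markers have a median of 1.42 and hair keratin genes of -4.10.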

How the data were processed

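RNA was measured in 1 library of stretched and 1 of control whole-layer skin. Per the methods and the submitters' processing notes, reads of 76 bases were filtered for quality before TopHat2 placed them on mm10. What the authors deposited is a raw read count per gene symbol, with no normalization. The counting program and its treatment of strand are not given in the sources used here. CPM and FPKM were computed here from those deposited counts with library totals and, for length, the union of exons in GENCODE M21, with a length for 98.6% of the 24421 symbols (23376 by name and 693 by synonym). A count of 3 or fewer, which is 0.212 CPM in the control and 0.258 CPM in the stretched library, was set to 3. Each condition has 1 library, so there is no test and no p-value, and the intervals cover counting error only.

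The members and the gene lists were chosen with earlier results of these data known, and the hair keratin and melanocyte lists were added after their values were seen. The rule for named genes took the 8 members, list genes called by EV and 2-fold (with 1 added to each FPKM, a choice made here), in each list the gene with the highest summed count and the largest differences upward and downward with 20 or more counts, and the channel genes nearest to the members with the largest differences. 1 gene that this rule takes is not reported here. Values of Scnn1g, Mcoln3, Trpv6 and Trpm3 come from that last part, and marker genes are named as examples from their lists. Trpv1, Nfatc1, Nfatc4, Egfr, Tgfa, Areg and Ereg were named after their values were seen. Scaling was repeated with the upper quartile, the median of ratios of DESeq2 1.42.0, the TMM factors of edgeR 4.0.16 and totals without the top 50 genes. Other pseudocounts, EV limits, lengths and 99% intervals were also tried, and a minimum of 100 counts for the median was added after seeing the data. Scripts were checked on simulated data. Python 3.11.15, numpy 2.4.6, pandas 2.3.3, scipy 1.17.1, matplotlib 3.10.9 and R 4.3.3 were used.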

Additional observations from a re-analysis of the deposited data

How the results depend on the processing

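With a pseudocount of 0 or 0.1, 3 members passed EV in place of 4. None of the members was called up or down under any scaling, pseudocount, EV limit, length or interval tried. Over all genes these settings called 137 to 454 up and 131 to 442 down, so that few genes were called under any of them. The other scalings raised every log2 difference, by 0.10 with TMM, 0.11 with median of ratios, 0.10 with the upper quartile and 0.06 without the top 50 genes. The log2 difference of Piezo1 was then 0.14 with TMM, 0.15 with median of ratios and 0.14 with the upper quartile, and the number of members with an interval above 0 went from 2 to 3 under all 4 scalings. The number with an interval below 0 was 3 throughout. The median over the members lay between -0.18 and -0.05. No paired analysis was possible because each condition had 1 library, and no replicate could be left out. Depth limits Trpc1 and Trpc6 most, with 11 to 32 control counts.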
